A study of Mus musculus with 21 samples.

Results

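The D cyclin genes Ccnd1, Ccnd2 and Ccnd3 and the cyclin-dependent kinase (CDK) inhibitor genes Cdkn1a, Cdkn1b, Cdkn1c, Cdkn2c and Cdkn2d were examined in mouse brain cells sorted as neural stem/progenitor cells. These 8 genes were taken by symbol from the 24322 gene symbols measured. Each had a value above 0 in all 21 libraries and passed the filter on low values in every comparison. The cells were sorted by green fluorescence from C57BL/6 Nestin-EGFP mice, in which the fluorescent protein reports Nestin expression, and their polyadenylated RNA was sequenced. All mothers were dosed orally on embryonic days 12, 13 and 14, either with valproic acid (VPA, a histone deacetylase inhibitor used against epilepsy) at 300 mg/kg/day or with methylcellulose as the control. The groups were VPA and control forebrain cells at embryonic day 15 (E15), VPA and control dentate gyrus cells at postnatal day 5 (P5), and dentate gyrus cells at 12 weeks from VPA mice with voluntary running, from VPA mice without it and from control mice. Forebrain was sampled only at E15 and dentate gyrus only at the later ages, so age and tissue cannot be told apart between E15 and later groups. Each of the 7 groups had 3 libraries, labelled replicates 1 to 3. Running was studied only in mice exposed to VPA, so nothing could be measured of running without VPA. The labels do not say whether libraries came from separate litters or pooled animals, so p-values measure only the spread between these samples, which may be technical.

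D-type cyclins accumulate when cells receive mitogenic signals and bind CDK4 or CDK6, and the active kinases phosphorylate the retinoblastoma protein and its relatives so that E2F factors can switch on genes for DNA replication. The CIP/KIP inhibitors p21, p27 and p57 (genes Cdkn1a, Cdkn1b and Cdkn1c) bind several cyclin-CDK complexes, while the INK4 inhibitors p18 and p19 (genes Cdkn2c and Cdkn2d) bind CDK4 and CDK6 alone. In the brain, Ccnd2 is known for its role in hippocampal neurogenesis, Cdkn1a and Cdkn1c for keeping adult hippocampal stem cells quiescent, and Cdkn1b for the withdrawal of neuronal and oligodendrocyte progenitors from the cell cycle.

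The unit was FPKM, fragments scaled by transcript length and by library size, so levels can be set side by side between genes. Values summed to between 465610 and 574594 FPKM per library, and the number of reads behind them is unknown. Replicates at 12 weeks were more scattered than at the other ages: the median SD of log2(FPKM + 1) over 14662 genes was 0.48 in VPA running, 0.35 in VPA and 0.34 in control libraries at 12 weeks, against 0.09 to 0.11 at E15 and P5. Running replicate 3 stood apart, with 12019 genes above 0 where the other 12-week libraries had 13254 to 15210. VPA E15 replicate 3 carried choroid plexus markers summing to 11165 FPKM, against 11.6 to 155 FPKM in the other E15 libraries. All 8 neural stem/progenitor markers were above 0 in every library, and their sum was 459.9 to 632 FPKM at E15, 2357 to 2784 FPKM at P5 and 773 to 1469 FPKM at 12 weeks. Neuron markers summed to 1761 to 2311 FPKM at E15, above the progenitor markers. At 12 weeks, oligodendrocyte precursor markers summed to 1354 to 2399 FPKM in VPA libraries, above their progenitor markers at 778 to 919 FPKM. Pericyte markers summed to 986 to 2145 FPKM in control libraries of that age, where progenitor markers summed to 773 to 1456 FPKM. The sorted cells were therefore mixed, and the values are not those of stem cells alone. In such bulk samples, fewer cells of a type and less RNA per cell cannot be told apart.

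Ccnd1, whose protein is the classical mitogen-induced D cyclin, lies on chromosome 7 (chr7:144929931-144939925, minus strand, mm10). At E15 it stood at 8.24, 10.04 and 10.5 FPKM in VPA and at 8.97, 6.27 and 5.92 FPKM in control libraries. At P5 it stood at 26.2, 23.4 and 23.7 FPKM in VPA and at 24.2, 26.0 and 22.4 FPKM in control libraries. In the 12-week libraries Ccnd1 stood at 48.0, 44.8 and 66.4 FPKM in VPA running, 61.8, 121 and 151 FPKM in VPA and 53.8, 74.6 and 43.8 FPKM in control libraries. The 3 ages did not overlap: every P5 library was above every E15 library and below every 12-week library. Within an age the groups overlapped, and VPA replicates 2 and 3 at 12 weeks were the highest libraries of all.

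Ccnd2, the D cyclin best known from neural progenitors, lies on chromosome 6 (chr6:127125162-127152193, minus strand, mm10). It had 50.7, 48.6 and 46.6 FPKM in VPA and 69.4, 38.6 and 32.6 FPKM in control libraries at E15. At P5 it had 62.1, 45.0 and 49.8 FPKM in VPA and 74.5, 62.0 and 66.8 FPKM in control libraries. The 12-week values of Ccnd2 were 90.1, 73.3 and 103 FPKM in VPA running, 67.3, 53.3 and 30.3 FPKM in VPA and 75.3, 64.2 and 59.4 FPKM in control libraries. Its group means spanned 46.9 to 88.6 FPKM, and every pair of neighbouring groups in the order of the means overlapped. At E15, control replicate 1 was the highest control library for Ccnd2, Ccnd1 and Cdkn2c. It also held the highest proliferation marker sum of that age, 238 FPKM against 145 to 210.2 FPKM in the other 5 libraries. Among VPA libraries at E15, replicate 1 had the highest Ccnd2 value, 50.7 FPKM, but the lowest proliferation marker sum, 189 FPKM.

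Ccnd3, the D cyclin that is also prominent in blood cell lineages, lies on chromosome 17 (chr17:47505051-47599691, plus strand, mm10). At E15 it had 9.05, 8.87 and 16.5 FPKM in VPA and 9.51, 11.1 and 10.6 FPKM in control libraries, the value of 16.5 coming from the library with choroid plexus markers. At P5 it had 17.6, 18.2 and 22.0 FPKM in VPA and 21.7, 23.0 and 19.9 FPKM in control libraries. For the 12-week groups Ccnd3 had 28.6, 23.5 and 26.6 FPKM in VPA running, 14.0, 54.1 and 26.0 FPKM in VPA and 30.3, 24.9 and 37.1 FPKM in control libraries. The VPA libraries at 12 weeks held both the lowest and the highest Ccnd3 value of that age.

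**Figure D1:**
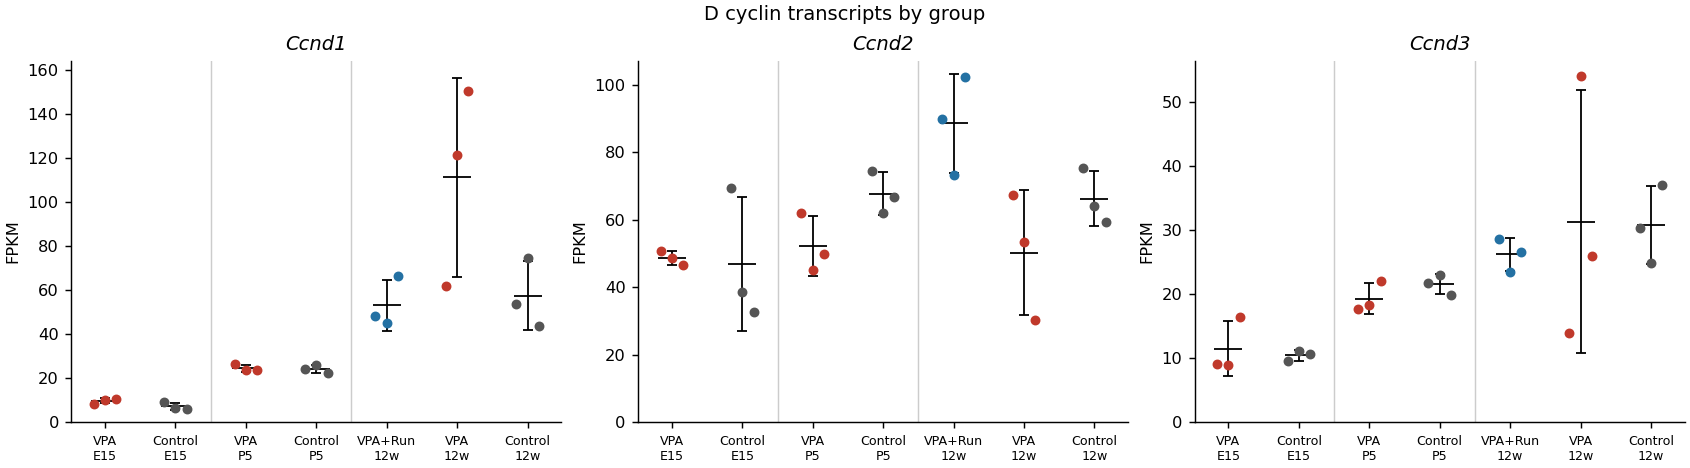
FPKM of Ccnd1, Ccnd2 and Ccnd3 in each of the 21 libraries (points), with the mean and SD of the 3 libraries of a group (bars). Ccnd1 steps up with age and spreads from 61.8 to 151 FPKM in VPA libraries at 12 weeks, while the Ccnd2 groups overlap across ages.

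The make-up of the D cyclin pool differed between ages, with tissue differing as well between E15 and P5, and is given as a description without a test. Ccnd1 made up 13.8 ± 1.46% of the summed D cyclin FPKM in VPA and 11.2 ± 0.928% in control libraries at E15 (SD, n = 3 each, here and below), and 25.5 ± 1.31% in VPA and 21.4 ± 1.82% in control libraries at P5. At 12 weeks its share was 31.5 ± 2.57% in VPA running, 56.3 ± 15.1% in VPA and 36.8 ± 7.67% in control libraries. Ccnd2 was the main D cyclin at E15, with 70.0 ± 5.89% in VPA and 71.4 ± 6.66% in control libraries, and stood at 52.7 ± 1.16% in VPA running, 28.3 ± 16.8% in VPA and 42.9 ± 4.05% in control libraries at 12 weeks. VPA replicate 3 at 12 weeks was the extreme, with 72.8% Ccnd1 and 14.7% Ccnd2. The summed D cyclin level was 69.7 ± 3.40 FPKM in VPA and 64.3 ± 20.7 FPKM in control libraries at E15, 96.0 ± 9.66 FPKM in VPA and 113 ± 6.02 FPKM in control libraries at P5, and 168 ± 27.0 FPKM in VPA running, 193 ± 44.5 FPKM in VPA and 154 ± 12.5 FPKM in control libraries at 12 weeks.

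**Figure D2:**
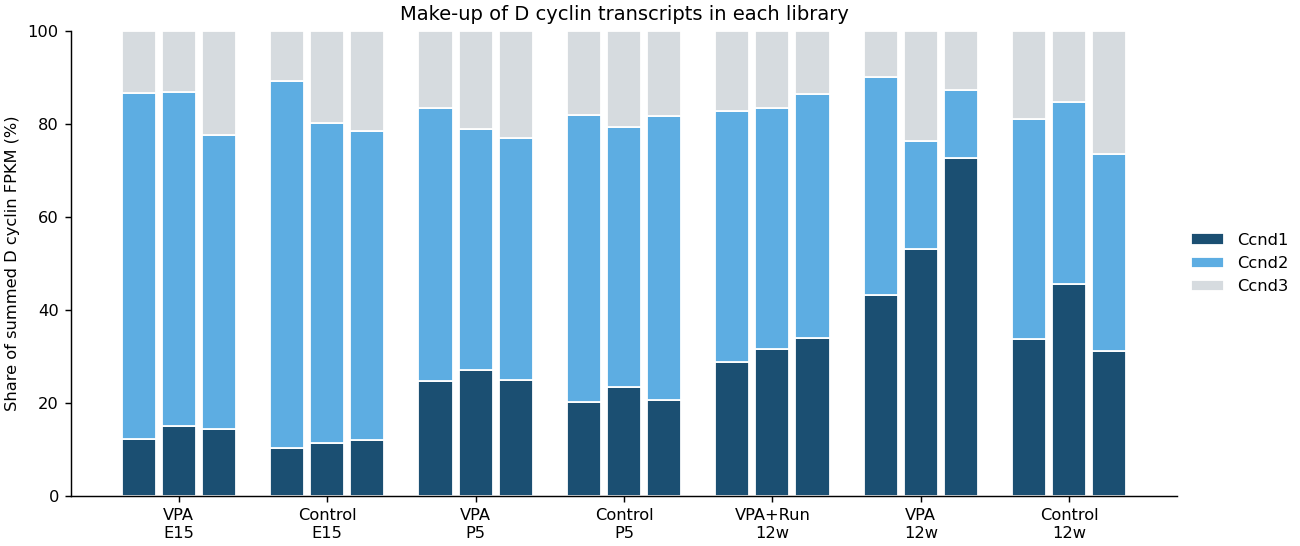
Share of Ccnd1, Ccnd2 and Ccnd3 in the summed D cyclin FPKM, in percent, with 1 bar for each library and replicates 1 to 3 from left to right in a group. The Ccnd1 share is 10.2% to 14.9% in the 6 E15 libraries and 28.8% to 72.8% in the 9 libraries at 12 weeks.

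Among the inhibitors, Cdkn1b (p27; chr6:134920401-134925513, plus strand, mm10) was the most abundant in every library. It had 86.0, 96.5 and 85.3 FPKM in VPA and 95.9, 95.5 and 91.8 FPKM in control libraries at E15, and 114, 94.1 and 96.3 FPKM in VPA and 111, 104 and 121 FPKM in control libraries at P5. At 12 weeks it had 150.2, 154 and 173 FPKM in VPA running, 128, 126 and 128 FPKM in VPA and 131, 115 and 142 FPKM in control libraries. It ranged over 85.3 to 173 FPKM in the 21 libraries, and the 3 running libraries were above the other 18.

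Cdkn1a (p21; chr17:29090976-29100727, plus strand, mm10), a textbook target of the transcription factor p53, was the least abundant inhibitor in every P5 library. It had 3.11, 5.17 and 2.56 FPKM in VPA and 1.97, 2.62 and 2.39 FPKM in control libraries at E15, and 2.80, 2.62 and 2.48 FPKM in VPA and 1.48, 2.74 and 2.86 FPKM in control libraries at P5. At 12 weeks it had 2.55, 16.9 and 11.9 FPKM in VPA running, 20.8, 9.22 and 10.1 FPKM in VPA and 13.2, 22.6 and 13.0 FPKM in control libraries. Running replicate 1 stayed at the level of the younger ages, and the other 8 libraries at 12 weeks were above every E15 and P5 library.

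Cdkn1c (p57; chr7:143458339-143461050, minus strand, mm10), an imprinted gene expressed mainly from the maternal allele, was the one inhibitor highest in the embryo. It had 53.2, 54.7 and 59.9 FPKM in VPA and 52.96, 72.1 and 60.4 FPKM in control libraries at E15, against 11.4, 9.95 and 9.66 FPKM in VPA and 8.51, 9.46 and 10.6 FPKM in control libraries at P5. At 12 weeks it had 16.3, 23.0 and 0.0531 FPKM in VPA running, 5.33, 9.54 and 10.6 FPKM in VPA and 7.58, 17.6 and 18.2 FPKM in control libraries. The value of 0.0531 FPKM came from running replicate 3, the library with the fewest genes detected. All 6 E15 libraries were above all 15 later ones.

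Cdkn2c (p18; chr4:109660876-109667189, minus strand, mm10) followed the ages like Ccnd1. It had 6.24, 4.67 and 4.65 FPKM in VPA and 9.02, 6.11 and 4.83 FPKM in control libraries at E15, and 26.1, 21.3 and 23.9 FPKM in VPA and 28.3, 25.04 and 27.7 FPKM in control libraries at P5. At 12 weeks it had 43.3, 47.7 and 102 FPKM in VPA running, 37.1, 36.8 and 50.7 FPKM in VPA and 42.2, 58.5 and 46.8 FPKM in control libraries. Again the 3 ages did not overlap, and the highest value came from running replicate 3.

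Cdkn2d (p19; chr9:21288410-21291407, minus strand, mm10) overlapped between all ages. It had 27.0, 24.5 and 22.8 FPKM in VPA and 26.5, 27.1 and 25.6 FPKM in control libraries at E15, and 22.5, 22.3 and 23.4 FPKM in VPA and 25.9, 23.3 and 21.2 FPKM in control libraries at P5. The 12-week values of Cdkn2d were 25.2, 26.1 and 22.7 FPKM in VPA running, 35.2, 26.2 and 63.1 FPKM in VPA and 20.9, 26.3 and 35.2 FPKM in control libraries. VPA replicate 3 at 12 weeks, at 63.1 FPKM, was the single library far above the rest. The remaining INK4 genes were near the floor: Cdkn2a was at 0 in all E15 and 12-week libraries and at most 0.396 FPKM at P5, and Cdkn2b was at most 5.20 FPKM in any library.

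**Figure D3:**
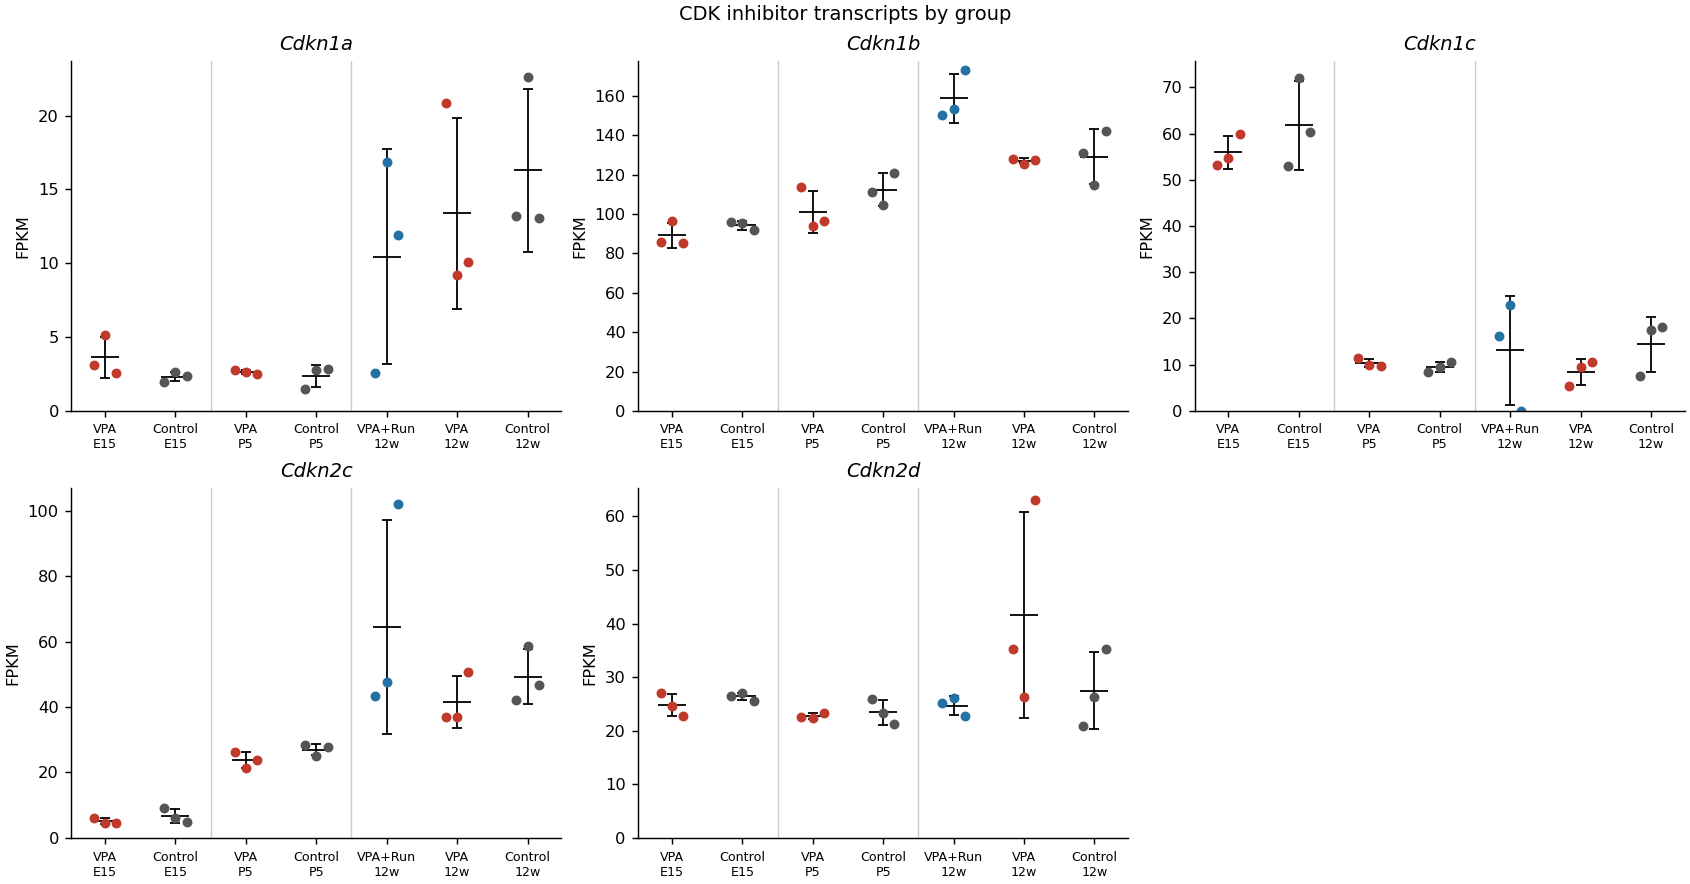
FPKM of the 5 CDK inhibitor genes in each of the 21 libraries (points), with the mean and SD of the 3 libraries of a group (bars). Cdkn1c is high at E15 and low later, Cdkn2c steps up with age, Cdkn1a is above 9 FPKM in 8 of the 9 libraries at 12 weeks, and the groups of Cdkn2d overlap across ages.

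Ordered by group mean, neighbouring groups were separated at few places. Ccnd1 ran from VPA at 12 weeks (111 FPKM) through control and VPA running at 12 weeks to VPA and control at P5 and then VPA and control at E15 (7.05 FPKM), with gaps between ages only. Cdkn2c ran from VPA running (64.3 FPKM), control and VPA at 12 weeks through control and VPA at P5 to control and VPA at E15 (5.18 FPKM), also with gaps between ages only. Ccnd3 ran in the order VPA, control and VPA running at 12 weeks (31.3 FPKM at the top), control and VPA at P5, then VPA and control at E15 (10.4 FPKM), and its neighbours were apart at the same places, although VPA replicate 1 at 12 weeks, at 14.0 FPKM, lay below every P5 library. For Cdkn1c the only gap was below the 2 E15 groups (56.0 FPKM in VPA and 61.8 FPKM in control libraries). For Cdkn1b the gaps were below VPA running (159 FPKM) and between VPA at 12 weeks (127 FPKM) and control at P5 (112 FPKM). Control replicate 2 at 12 weeks, at 115 FPKM, nevertheless lay inside the control P5 range of 104 to 121 FPKM. The neighbours of Ccnd2, Cdkn1a and Cdkn2d overlapped throughout.

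Promoter windows are shown for inhibitors that differed in level and in course: Cdkn1a, which was low until 12 weeks, Cdkn1b, the highest in every library, and Cdkn2c, which stepped up with each age. They are RefSeq windows (GRCm38.p6) from 250 bases before to 50 bases after a start site, read 5′ to 3′ on the strand of the gene, and 5 of the 8 genes had one. Ccnd3, Cdkn1a and Cdkn2c each had 2 windows, and only the one nearest the annotated gene start was described. The matches given for these genes therefore do not cover the promoter at their other start site. Capitals mark GC boxes (GGGCGG, the letters bound by Sp1-type factors) in Cdkn1b and Cdkn2c, and in Cdkn1a a pair of CATG cores with 6 bases between them, the arrangement of cores in a p53 half-site pair. The paired cores were searched for after the sequence had been seen.
Cdkn1a (chr17:29090729-29091028, plus strand): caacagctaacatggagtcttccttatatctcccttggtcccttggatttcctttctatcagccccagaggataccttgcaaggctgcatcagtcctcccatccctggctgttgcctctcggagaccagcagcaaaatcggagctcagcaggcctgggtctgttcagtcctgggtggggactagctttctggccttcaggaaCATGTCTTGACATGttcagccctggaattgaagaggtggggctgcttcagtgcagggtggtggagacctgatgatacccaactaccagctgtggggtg
Cdkn1b (chr6:134920151-134920450, plus strand): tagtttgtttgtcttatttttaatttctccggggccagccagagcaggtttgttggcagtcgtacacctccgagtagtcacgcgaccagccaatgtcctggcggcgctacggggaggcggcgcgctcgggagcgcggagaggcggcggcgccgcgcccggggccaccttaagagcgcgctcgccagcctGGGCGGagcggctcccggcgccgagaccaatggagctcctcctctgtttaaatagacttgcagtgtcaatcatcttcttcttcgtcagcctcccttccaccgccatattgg
Cdkn2c (chr4:109666707-109667006, minus strand): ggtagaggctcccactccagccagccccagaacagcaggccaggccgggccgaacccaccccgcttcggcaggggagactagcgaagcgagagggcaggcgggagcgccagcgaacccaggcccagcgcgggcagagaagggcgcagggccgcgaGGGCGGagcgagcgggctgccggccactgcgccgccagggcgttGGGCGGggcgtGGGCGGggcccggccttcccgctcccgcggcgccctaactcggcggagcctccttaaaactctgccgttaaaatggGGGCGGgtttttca
The Cdkn1a window shown held the paired cores once, at -48 to -35 from the start site of that window, and no GC box. Of 32851 promoter windows in the RefSeq table, searched on both strands, 0.712% held the paired cores and 35.7% held a GC box. The Cdkn1b window held 1 GC box, at -61 to -56, and 3 CCAAT boxes (the letters CCAAT), which 37.4% of windows held. The Cdkn2c window held 4 GC boxes. Ccnd3 and Cdkn2d, whose windows are not printed, held 2 and 5 GC boxes. No TATA box (TATAAA), E-box (CACGTG) or E2F site (TTTGGCGC or TTTCGCGC) was found on either strand in these 5 windows, 1 for each gene. Of all windows, 0.514% held TTTGGCGC and 0.323% held TTTCGCGC. These are matches of letters and not measured binding sites.

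Control cells were compared between ages with limma on log2(FPKM + 1), in a fit of all 21 libraries with Benjamini-Hochberg adjustment over 14662 genes and a threshold of 0.05. E15 cells came from forebrain and P5 cells from dentate gyrus, so age and tissue cannot be told apart in the first step. At P5 against E15, 3 of the 8 genes rose, Ccnd1, Ccnd3 and Cdkn2c, where 14.4% of all genes tested rose. Cdkn1c fell, where 6.33% of all genes fell. In control libraries, Ccnd1 averaged 24.2 ± 1.79 FPKM at P5 and 7.05 ± 1.67 FPKM at E15, a log2 fold change of 1.66 (SE 0.26, limma adjusted p = 0.000121). Cdkn2c averaged 27.0 ± 1.72 FPKM at P5 and 6.65 ± 2.15 FPKM at E15, a log2 fold change of 1.91 (SE 0.26, limma adjusted p = 2.95e-05). Both genes had higher values in all 3 P5 libraries than in any E15 control library.

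Cdkn1c averaged 9.53 ± 1.06 FPKM at P5 and 61.8 ± 9.64 FPKM at E15, a log2 fold change of -2.57 (SE 0.74, limma adjusted p = 0.0180). In a fit without running replicate 3, chosen after seeing the data, the SE was 0.27 and the adjusted p 1.69e-06. With all other libraries kept, its adjusted p was 0.0638 without control E15 replicate 2, 0.0501 without control E15 replicate 3, 0.0590 without control P5 replicate 1 and 0.0518 without control P5 replicate 2. Ccnd3 averaged 21.5 ± 1.54 FPKM at P5 and 10.4 ± 0.807 FPKM at E15, a log2 fold change of 0.98 (SE 0.32, limma adjusted p = 0.0391). That call was the least secure of the 4: the adjusted p was 0.0722 to 0.115 when any 1 of the 6 control libraries was left out, and 0.0672 with median-of-ratios scaling. The median gene rose by 0.14 on the log2 scale in this comparison, and genes that rose were 69.5% of all calls. With median-of-ratios scaling that share was 58.1% with a median change of 0.05, and with quantile normalization it was 52.1% with a median change of -0.055.

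The other 4 genes did not pass at P5 against E15. Ccnd2 averaged 67.8 ± 6.31 FPKM at P5 and 46.9 ± 19.8 FPKM at E15 (log2 fold change 0.60, SE 0.26, limma adjusted p = 0.127), and without control E15 replicate 1, the high library, its log2 fold change was 0.91 with adjusted p = 0.0139. Cdkn1b averaged 112 ± 8.37 FPKM at P5 and 94.4 ± 2.27 FPKM at E15 without overlap (log2 fold change 0.25, SE 0.10, limma adjusted p = 0.0914). It passed with quantile normalization, at an adjusted p of 0.0498, and in a fit of only the control P5 and E15 groups, at 0.0185. Cdkn2d had a log2 fold change of -0.17 (95% interval -0.64 to 0.31) and Cdkn1a of -0.01 (95% interval -0.97 to 0.95), and neither was called. The control groups did not overlap for 5 of the 8 genes, where 66.5% of all genes did not overlap.

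From P5 to 12 weeks, both in dentate gyrus, 3 of the 8 genes rose in control cells, Ccnd1, Cdkn1a and Cdkn2c, where 7.26% of all genes rose, and 0 fell, where 5.35% of all genes fell. The 1848 calls over all genes were 1139 without control P5 replicate 2, 1144 without replicate 1 and 1179 without replicate 3 of that group, and the genes that fell were 400, 413 and 438 in these fits, against 784. Ccnd1 averaged 57.4 ± 15.7 FPKM at 12 weeks and 24.2 ± 1.79 FPKM at P5, a log2 fold change of 1.18 (SE 0.26, limma adjusted p = 0.00565). Cdkn1a averaged 16.3 ± 5.50 FPKM at 12 weeks and 2.36 ± 0.764 FPKM at P5, a log2 fold change of 2.35 (SE 0.45, limma adjusted p = 0.00211), the largest rise among the 8 genes in this step. Both held when any 1 of the 6 control libraries was left out, with adjusted p at most 0.0365 for Ccnd1 and 0.0153 for Cdkn1a. Cdkn2c averaged 49.2 ± 8.41 FPKM at 12 weeks and 27.0 ± 1.72 FPKM at P5, a log2 fold change of 0.83 (SE 0.26, limma adjusted p = 0.0461). It was at the edge of the threshold, with an adjusted p of 0.101 without control P5 replicate 1, 0.143 without P5 replicate 2, 0.105 without P5 replicate 3, 0.163 without 12-week replicate 2 and 0.0863 without 12-week replicate 3. In the fit without running replicate 3 it was 0.00514.

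Ccnd3 was higher in every control library at 12 weeks than at P5, with 30.8 ± 6.12 FPKM at 12 weeks and 21.5 ± 1.54 FPKM at P5, but did not pass (log2 fold change 0.48, SE 0.32, limma adjusted p = 0.397). Ccnd2, Cdkn1b, Cdkn1c and Cdkn2d had log2 fold changes of -0.03, 0.20, 0.47 and 0.20, and none passed. Ccnd1 and Cdkn2c were the genes called at both steps, and in the same direction. The control groups at 12 weeks and P5 did not overlap for 4 of the 8 genes, where 37.5% of all genes did not overlap.

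**Figure D4:**
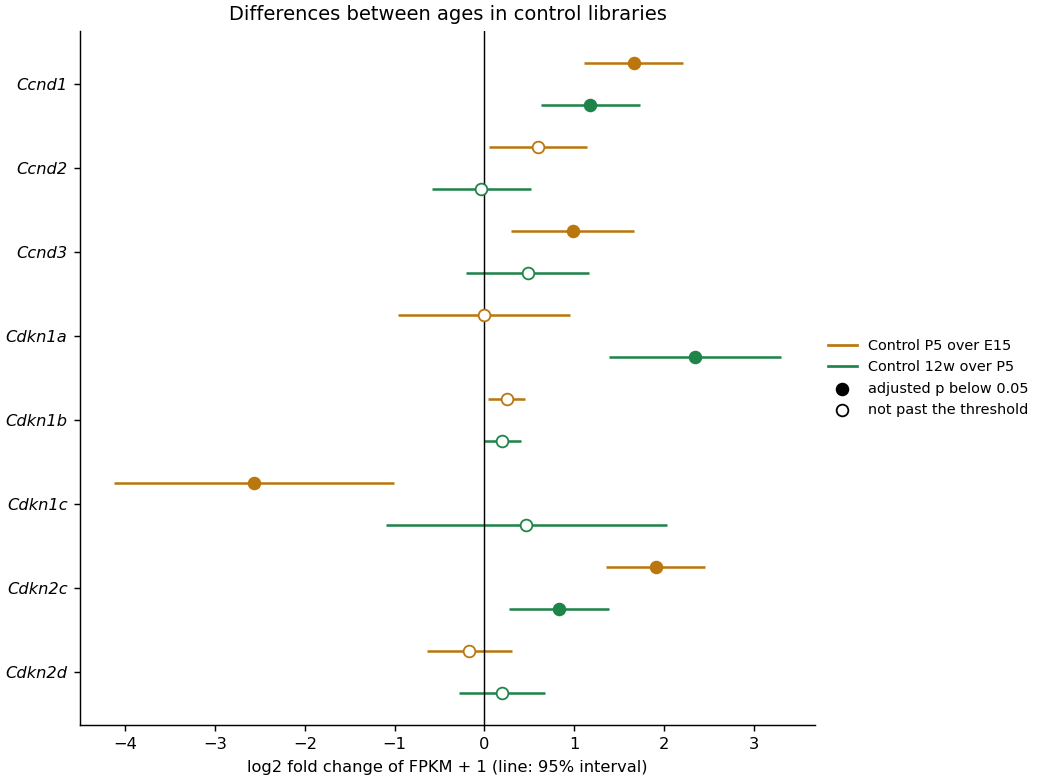
Log2 fold change of FPKM + 1 between control groups for the 8 genes, P5 over E15 and 12 weeks over P5, with lines for the 95% interval and filled points for an adjusted p below 0.05. Ccnd1 and Cdkn2c are filled at both steps, Cdkn1a at the later step alone with 2.35, and Cdkn1c is filled at -2.57 at the earlier step with a wide interval.

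Markers of cell types moved with age in the same control libraries. At P5 against E15, all 6 astrocyte markers rose (median log2 fold change 3.78), as did 5 of 6 pericyte, 5 of 8 neural stem/progenitor, 4 of 5 myelinating oligodendrocyte, 3 of 4 erythroid, 2 of 7 microglial and 2 of 5 fibroblast markers, and 5 of 6 neuron markers fell. At 12 weeks the 5 endothelial markers summed to 99.3, 259 and 134 FPKM, against 2.29, 2.72 and 4.72 FPKM at P5, and all 5 rose. The 6 pericyte markers summed to 986, 1769 and 2145 FPKM at 12 weeks, against 114, 99.99 and 105 FPKM at P5, and all 6 rose. Cspg4 among them is also on the oligodendrocyte precursor list. Replicate 2 was the highest 12-week control library for both the endothelial sum and Cdkn1a. It was also the highest for the neural stem/progenitor (1456 FPKM), astrocyte (771 FPKM) and fibroblast (40.0 FPKM) sums. The pericyte and neuron sums were highest in replicate 3 and the microglial sum in replicate 1. The 5 oligodendrocyte precursor markers, Pdgfra, Cspg4, Sox10, Olig1 and Olig2, all rose at both steps, summing in control libraries to 9.61, 9.64 and 5.15 FPKM at E15, 364, 421 and 357 FPKM at P5 and 882, 1274 and 843 FPKM at 12 weeks. Replicate 2 was the highest control library for this sum and for Ccnd1 both at 12 weeks and at P5. At E15 replicate 2 had the highest control sum, 9.64 FPKM, but replicate 1 had the highest Ccnd1 value, 8.97 FPKM. No endothelial or pericyte marker was at 0 in control libraries at P5 or 12 weeks. At 12 weeks against P5, 3 of 7 microglial, 3 of 6 astrocyte, 2 of 5 myelinating oligodendrocyte and 2 of 5 fibroblast markers rose. In the same step 2 of 6 astrocyte, 2 of 8 neural stem/progenitor, 1 of 6 neuron and 3 of 4 erythroid markers fell. The part of these cell types in the changes of Ccnd1, Ccnd3, Cdkn1a, Cdkn1c and Cdkn2c was not tested.

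The partners of the D cyclins were measured in the same cells. Cdk4, the kinase shared by all D cyclins, was abundant, with 425 ± 26.0 FPKM in VPA and 468 ± 15.2 FPKM in control libraries at E15, 381 ± 15.5 FPKM in VPA and 403 ± 16.1 FPKM in control libraries at P5, and 330.4 ± 5.80 FPKM in VPA running, 299 ± 14.5 FPKM in VPA and 310.2 ± 20.1 FPKM in control libraries at 12 weeks. Cdk6, its close relative, was much lower, with 2.83 ± 0.446 FPKM in VPA and 2.52 ± 0.694 FPKM in control libraries at E15, 4.88 ± 0.693 FPKM in VPA and 7.39 ± 2.01 FPKM in control libraries at P5, and 15.3 ± 1.36 FPKM in VPA running, 8.46 ± 4.96 FPKM in VPA and 11.04 ± 0.852 FPKM in control libraries at 12 weeks. Rb1, which encodes the retinoblastoma protein, had group means between 21.1 and 27.6 FPKM. In control cells Cdk6 rose at P5 against E15 (log2 fold change 1.24, limma adjusted p = 0.0131), and Cdk4 fell at 12 weeks against P5 (log2 fold change -0.38, limma adjusted p = 0.00335).

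Other genes of the pathway rose in part at P5 against E15 in control cells, on lists chosen with earlier results of these data known. These counts stand beside 14.4% of all genes that rose and 6.33% that fell, and those of 1 or 2 in 10 lie near these shares. Of 9 G1 and G1/S kinases and cyclins 3 rose and none fell: Cdk2, the partner of E cyclins (1.26 on the log2 scale), Cdk6 and Ccne1, an E cyclin (1.48). The list median was 0.66. Of 3 pocket proteins Rbl2 rose (0.58), and of 10 E2F and DP factors the activators E2f1 (1.17) and E2f3 (0.74) rose and none fell. Of 10 genes for the turnover of G1 regulators, Fbxo31, a ubiquitin ligase component that targets cyclin D1, fell (-0.45). Of 3 mitogen-linked activators none passed. Of 17 genes of p53 and its targets, Btg2 (2.09), Gadd45a (1.47), Eda2r (1.41) and Phlda3 (1.02) rose and the kinase gene Plk2 fell (-1.23), while Cdkn1a itself had -0.01. Of 10 proliferation markers Pcna (0.62), Mcm5 (0.65) and Mki67 (0.74) rose, and all 10 had a positive log2 fold change. The E2F list median was 0.63 and the proliferation list median 0.58, beside 0.14 over all genes.

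At 12 weeks against P5 the same lists had mostly negative medians, and their counts stand beside 7.26% of all genes that rose and 5.35% that fell, which a count of 1 in 10 lies near. Of 9 kinases and cyclins Cdk4 and Ccna2, the cyclin of S phase (-1.33), fell and 8 had a negative log2 fold change. E2f3 (-0.84) fell among 10 E2F and DP factors, Gsk3b, a kinase that marks cyclin D1 for degradation (-0.58), among 10 turnover genes, and Myc (-1.32) and Mycn (-0.60) among 3 mitogen-linked activators. Mki67 (-0.88) fell among 10 proliferation markers, 9 of which had a negative log2 fold change, with a median of -0.90 beside -0.04 over all genes. Of 17 genes of p53 and its targets Phlda3 rose (1.27), with a list median of 0.17, and no pocket protein passed.

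The effect of prenatal VPA was taken up separately at each age. At E15, in a fit of 6 libraries, none of the 8 genes passed, where 0.0405% of 12345 genes did. These 5 genes were lower in VPA libraries, but without control replicate 1 the calls were 7 genes, all higher. Without adjustment 1 of the 8 had p below 0.05, against 10.5% of all genes. No gene of the 8 had groups without overlap, against 17.5% of all genes. The gene with the low p was Ccnd1, with 9.60 ± 1.21 FPKM in VPA and 7.05 ± 1.67 FPKM in control libraries (log2 fold change 0.41, 95% interval 0.03 to 0.79, limma adjusted p = 0.456). The groups overlapped because control replicate 1, at 8.97 FPKM, was above VPA replicate 1, at 8.24 FPKM. Cdkn1a had a log2 fold change of 0.44 (95% interval -0.07 to 0.94) and Cdkn2c of -0.28 (95% interval -0.78 to 0.22). Ccnd2 had 0.13, with the widest interval of the 8 genes (95% interval -0.47 to 0.73). Ccnd3 had 0.08, and -0.19 without VPA replicate 3, the library with choroid plexus markers. Cdkn1b, Cdkn1c and Cdkn2d lay between -0.13 and -0.08, with 95% intervals inside -0.41 to 0.14. These intervals reflect only the spread between the 6 libraries. No pathway gene that was tested passed at E15.

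At P5, in a fit of 6 libraries, none of the 8 genes passed either, where 2.24% of 13328 genes did. Without adjustment 1 of the 8 had p below 0.05, against 24% of all genes, and the groups overlapped for all 8, where 29.4% of all genes did not overlap. Ccnd2 was the closest, with 52.3 ± 8.82 FPKM in VPA and 67.8 ± 6.31 FPKM in control libraries (log2 fold change -0.38, 95% interval -0.66 to -0.09, limma adjusted p = 0.128). The overlap came from VPA replicate 1, at 62.1 FPKM, beside control replicate 2, at 62.0 FPKM. Without VPA replicate 1 the log2 fold change of Ccnd2 was -0.50 and the adjusted p 0.0424. Ccnd1 had a log2 fold change of 0.01 (95% interval -0.16 to 0.19) and Cdkn2c had -0.18 (95% interval -0.38 to 0.02). Ccnd3 had -0.15, Cdkn1b -0.15, Cdkn1a 0.14, Cdkn1c 0.11 and Cdkn2d -0.04.

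Around them at P5, Btg2, a p53 target that slows proliferation, fell in VPA libraries (log2 fold change -1.08, limma adjusted p = 0.00152) as 1 of 17 genes of its list, and Top2a, a topoisomerase of dividing cells, fell (-0.60, adjusted p = 0.0415) as 1 of 10 proliferation markers. All 10 proliferation markers had a negative log2 fold change, with a median of -0.28 beside -0.004 over all genes, and their sum was 256, 206 and 224 FPKM in VPA and 288, 276 and 277 FPKM in control libraries. No other pathway gene passed. VPA replicate 1, the VPA library highest in Ccnd2, was also the highest of the 3 in proliferation markers. Markers of cell types also moved at P5 between VPA and control. All 8 neural stem/progenitor markers were lower in VPA libraries (median -0.37 on the log2 scale), and Sox2 and Hes1 fell, their sum being 2416, 2357 and 2385 FPKM in VPA and 2784, 2583 and 2425 FPKM in control libraries. All 6 pericyte markers were higher and 2 rose, with sums of 265, 212 and 153 FPKM in VPA and 114, 99.99 and 105 FPKM in control libraries. All 5 fibroblast markers were higher and 2 rose, while all 4 erythroid markers tested were lower and 2 fell, with a median of -1.99. All 5 microglial markers tested (median 0.61) and 4 of 5 oligodendrocyte precursor markers (median 0.36) were higher, with none passing. The part of these cells in the Ccnd2 values was not tested.

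At 12 weeks, in a fit of the 9 libraries, none of the 8 genes and 0% of 13847 genes passed between VPA and control, while 6.39% of genes had an unadjusted p below 0.05. The groups overlapped for all 8 genes, where 15.5% of all genes did not overlap. Ccnd1 was the 1 of the 8 with an unadjusted p below 0.05, and had 111 ± 45.2 FPKM in VPA and 57.4 ± 15.7 FPKM in control libraries in the limma fit (log2 fold change 0.88, SE 0.33, 95% interval 0.16 to 1.61, limma adjusted p = 0.683). It ranked 436 among the genes by p, and its log2 fold change was 0.62 to 1.26 when any 1 of the 6 libraries was left out. Cdkn2d had 0.51 (95% interval -0.19 to 1.22), Ccnd2 -0.46 (95% interval -1.06 to 0.15) and Cdkn1c -0.66 (95% interval -2.83 to 1.51). Without VPA replicate 3, Cdkn2d had 0.17 and Ccnd2 -0.14. Cdkn1b had -0.02 (95% interval -0.35 to 0.31), Cdkn1a -0.31, Cdkn2c -0.24 and Ccnd3 -0.16. Ccnd3 turned to 0.30 without VPA replicate 1, the library at 14.0 FPKM. No gene of the pathway lists passed in any of the 3 comparisons at 12 weeks.

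The difference in the VPA effect between ages was tested as an interaction in the fit of all libraries, and none of the 8 genes passed in any of the 3 tests. The percentage of all genes that passed was 0.0955% for P5 minus E15, 0.389% for 12 weeks minus P5 and 0.0818% for 12 weeks minus E15. For Ccnd1 the VPA effect at 12 weeks exceeded that at P5 by 0.87 on the log2 scale (SE 0.37, unadjusted p = 0.0310, limma adjusted p = 0.414). For Ccnd2 the effect at P5 minus that at E15 was -0.50 (SE 0.37), and for Cdkn2d the effect at 12 weeks minus that at E15 was 0.60 (SE 0.32), both with unadjusted p above the threshold. Of the pathway lists, Btg2 alone passed, with -1.53 for P5 minus E15 (limma adjusted p = 0.00633) and 1.12 for 12 weeks minus P5 (limma adjusted p = 0.0394).

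Running VPA mice were compared with VPA mice without running at 12 weeks. None of the 8 genes and 0% of 13847 genes passed, and 11.3% had an unadjusted p below 0.05. Of the 8 genes, 2 did so in this limma fit, Ccnd2 and Ccnd1, in opposite directions. Ccnd2 averaged 88.6 ± 14.7 FPKM in VPA running and 50.3 ± 18.7 FPKM in VPA libraries without overlap (log2 fold change 0.86, SE 0.27, 95% interval 0.26 to 1.47, limma adjusted p = 0.291). Ccnd1 averaged 53.1 ± 11.6 FPKM in VPA running and 111 ± 45.2 FPKM in VPA libraries (log2 fold change -0.98, SE 0.33, 95% interval -1.71 to -0.26, limma adjusted p = 0.306), and running replicate 3, at 66.4 FPKM, lay above VPA replicate 1, at 61.8 FPKM. The Ccnd2 share of the D cyclin pool was 51.8% to 54.0% in VPA running and 14.7% to 47.0% in VPA libraries.

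Of the inhibitors, Cdkn1b was higher in every VPA running library than in any VPA library (159 ± 12.5 FPKM in VPA running and 127 ± 1.31 FPKM in VPA libraries; log2 fold change 0.32, 95% interval -0.01 to 0.65, limma adjusted p = 0.453). Cdkn2d was lower in every VPA running library (24.7 ± 1.77 FPKM in VPA running and 41.5 ± 19.2 FPKM in VPA libraries; log2 fold change -0.64, 95% interval -1.34 to 0.07, limma adjusted p = 0.482). Ccnd2, Cdkn1b and Cdkn2d made 3 of 8 genes without overlap, where 15.5% of all genes did not overlap. Cdkn2c had a log2 fold change of 0.53 (95% interval -0.16 to 1.21), with running replicate 3 at 102 FPKM. Cdkn1a had -0.53, Ccnd3 -0.05 and Cdkn1c -0.28, the last with a 95% interval of -2.44 to 1.89.

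Against control libraries at 12 weeks, the running VPA libraries showed no call among the 8 genes or among 13847 genes (0%), with 7.76% of genes at an unadjusted p below 0.05 and none of the 8 among them. These comparisons share the VPA or control libraries with those above and are not independent of them. Ccnd1 had a log2 fold change of -0.10 (95% interval -0.82 to 0.63) and Ccnd2 of 0.41 (95% interval -0.20 to 1.01). Cdkn1b was the 1 gene of 8 without overlap (log2 fold change 0.30, 95% interval -0.03 to 0.63, limma adjusted p = 0.629), where 13.1% of all genes did not overlap. Cdkn1c had -0.94, and 0.49 without running replicate 3. Cdkn1a had -0.84 (95% interval -2.12 to 0.44), with running replicate 1 at 2.55 FPKM. Ccnd3 had -0.21, Cdkn2c 0.28 and Cdkn2d -0.12.

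**Figure D5:**
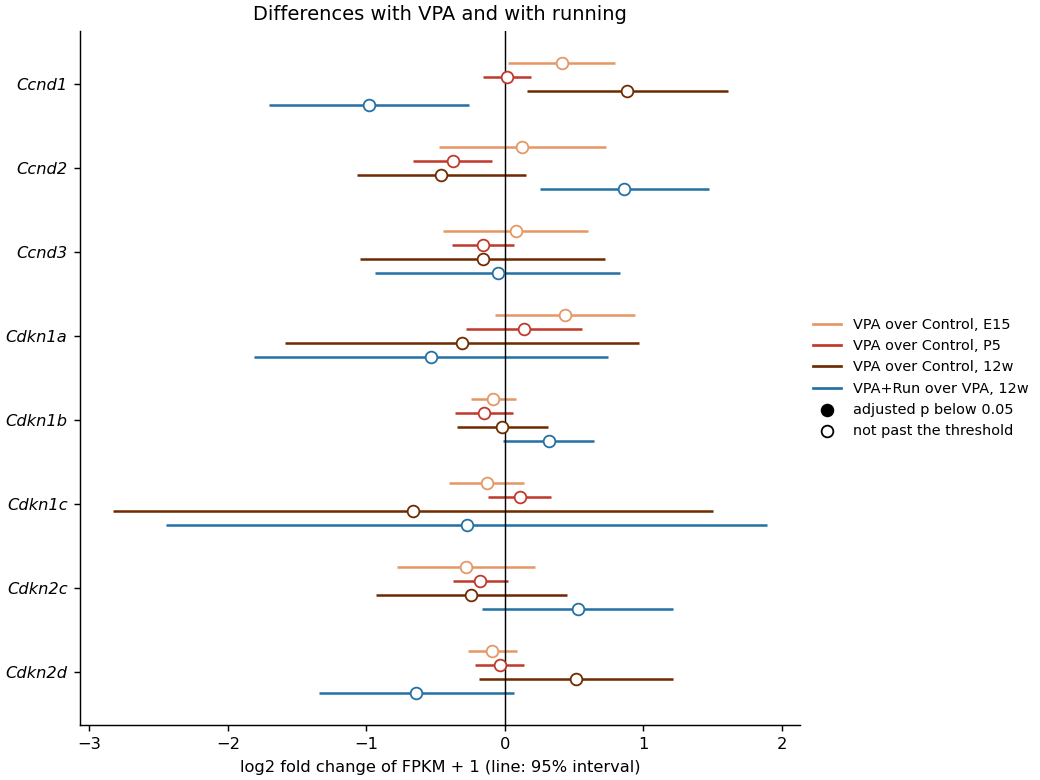
Log2 fold change of FPKM + 1 for the 8 genes between VPA and control libraries at E15, P5 and 12 weeks and between VPA running and VPA libraries at 12 weeks, with lines for the 95% interval. All points are open because no adjusted p is below 0.05, and the Ccnd1 and Ccnd2 points of the 12-week comparisons lie on opposite sides of 0.

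At 12 weeks the oligodendrocyte precursor markers moved beside Ccnd1. They summed to 788, 726 and 906 FPKM in VPA running, 1354, 1956 and 2399 FPKM in VPA and 882, 1274 and 843 FPKM in control libraries. In all 3 groups the library with the highest marker sum was also the one with the highest Ccnd1 value. At the younger ages this held in control P5 libraries alone. Among VPA libraries at P5, replicate 2 had the highest sum (449 FPKM) with the lowest Ccnd1 value (23.4 FPKM). Among those at E15, replicate 1 had the highest sum (9.68 FPKM) with the lowest Ccnd1 value (8.24 FPKM). At 12 weeks all 5 markers had a positive log2 fold change between VPA and control (median 0.94). All 5 had a negative one between VPA running and VPA (median -1.22), and none passed. Proliferation markers lay differently, at 298, 256 and 276 FPKM in VPA running, 199.8, 192 and 144 FPKM in VPA and 179, 272 and 191 FPKM in control libraries. In VPA libraries replicate 3 had the lowest proliferation sum and the lowest Ccnd2 value with the highest Ccnd1 value. Control libraries ran the other way, as replicate 1 had the lowest proliferation sum, 179 FPKM, and the highest Ccnd2 value, 75.3 FPKM. Control replicate 2 had the highest proliferation sum, 272 FPKM, and the highest Ccnd1 value, 74.6 FPKM. Other marker lists moved as well, with no marker passing. Between VPA and control all 5 endothelial (median -1.004), all 5 fibroblast (-1.11) and all 5 myelinating oligodendrocyte markers (-0.63) were lower, as were 5 of 6 pericyte markers (-0.80) and 5 of 6 microglial markers tested (-0.95). Of the astrocyte (median -0.61) and neuron markers (-0.21), 5 of 6 each were lower too. Between VPA running and VPA 5 of 6 astrocyte markers were higher (median 0.97) and 5 of 6 microglial markers tested were lower (-0.96). In that comparison 8 of 10 proliferation (0.65), 4 of 5 endothelial (0.74) and 5 of 6 pericyte markers (0.26) were higher. The neural stem/progenitor sum was 1099 to 1469 FPKM in VPA running and 778 to 919 FPKM in VPA libraries. The part of these cell types in the Ccnd1 and Ccnd2 values was not tested.

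The inhibitor pool was described in the same way as the D cyclin pool. Its sum was 179 ± 5.85 FPKM in VPA and 192 ± 10.3 FPKM in control libraries at E15, 161 ± 13.7 FPKM in VPA and 175 ± 9.30 FPKM in control libraries at P5, and 272 ± 36.4 FPKM in VPA running, 232 ± 27.7 FPKM in VPA and 237 ± 20.5 FPKM in control libraries at 12 weeks. Cdkn1b supplied 46.9% to 66.0% of it in every library. Cdkn1c supplied 31.3 ± 2.51% in VPA and 32.2 ± 3.53% in control libraries at E15, but 6.42 ± 0.207% in VPA and 5.46 ± 0.529% in control libraries at P5. Cdkn2c took the opposite course, with 2.91 ± 0.565% in VPA and 3.48 ± 1.19% in control libraries at E15 and 14.8 ± 0.604% in VPA and 15.5 ± 0.564% in control libraries at P5. At 12 weeks the Cdkn2c share was 23.0 ± 8.58% in VPA running, 17.8 ± 1.501% in VPA and 20.8 ± 3.19% in control libraries.

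Genes whose log2(FPKM + 1) followed each member most closely were listed by Pearson r over the 21 libraries, as a description without a test, since the libraries share age and tissue. Among 10299 genes, Ccnd1 was most like Ppfibp1 (0.985), Snx22 (0.985) and Rin2 (0.984). Cdkn2c was most like Tjp1 and, next, Rftn2 (0.974) and Thrsp (0.974), and Cdkn1c most like Tmem108 (0.960). Ccnd2 (Rif1, 0.907), Ccnd3 (Sil1, 0.929), Cdkn1a (Ly6c2, 0.899) and Cdkn1b (Hist1h2bl, 0.939) had looser neighbours. Cdkn2d had the loosest (Hist1h4k, 0.778).

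Annotated genes on the opposite strand share exonic bases with 5 of the 8: Ccnd1 with LTO1 over 1100 bases, Ccnd2 with Gm43126 over 372 and 9330179D12Rik over 368, Ccnd3 with Bysl over 361, Cdkn1a with AC167363.2 over 273 and Cdkn1c with Gm44732 over 625. Strand was not stated for these libraries, so reads from such partners cannot be told apart from those of the named gene.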

How the data were processed

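Polyadenylated RNA of sorted Nestin-EGFP cells was sequenced on an Illumina HiSeq, per the labels. Reads were processed against mm10 with Bowtie2, TopHat, Cuffdiff and Cufflinks, per the submitters' processing notes; their versions are not given in the sources used here. As values, the authors deposited 1 FPKM value per symbol and library; the 12-week headers name FPKM, and for E15 and P5 the unit was inferred from values. No read counts were used, so depth is unknown. At E15 and P5 relative depth, read from steps among low values, was 0.745 to 1.41 times that of control replicate 1 of the same age; at 12 weeks it could not be read.

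The 8 genes and all lists were chosen with earlier results of these data known. limma 3.58.1 in R 4.3.3 (lmFit, eBayes with trend) was run on log2(FPKM + 1), which understates changes of low genes, after dropping genes that did not reach 1 FPKM in 3 or more of the fitted libraries. P-values were adjusted by Benjamini-Hochberg over all tested genes, threshold 0.05. Fits used 6 libraries at E15 and P5, 9 at 12 weeks and all 21 for ages and interactions. The script was tested on simulated data with known changes. All 8 genes were named in each comparison of 2 groups, but only some of them in the interaction tests. Pathway genes were named past the threshold, at most 4 per list and direction by smallest p. The most similar genes by Pearson r, at most 3 for each gene, were listed among genes averaging at least 5 FPKM. At E15 same-numbered VPA and control libraries deviated together (correlations 0.126, 0.115 and 0.228), so a replicate block was fitted there as a paired alternative. At P5, VPA replicates 1 and 2 deviated most like the same-numbered control library (0.0943 and 0.0441) but replicate 3 did not, so pairing there is uncertain. In the other pairs of groups checked, same numbers did not match throughout. Printed values are from fits without a block unless stated. Alternatives were a pseudocount of 0.1, no filter or 5 FPKM, 2 other scalings, no trend, a replicate block, other sets of libraries and leaving out each library. Loci are from GENCODE M21 (mm10) and promoters from RefSeq (GRCm38.p6).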

Additional observations from a re-analysis of the deposited data

How the results depend on the processing

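Replicates of 3 limit every comparison, depth is unknown, and the wide spread at 12 weeks left wide intervals. Over left-out libraries the number of the 8 genes called was 2 to 4 for control P5 against E15 and 0 to 1 for VPA against control at P5. Over left-out libraries the sign changed for these genes, none of them called: between VPA and control, Ccnd2 (-0.090 to 0.44) and Ccnd3 (-0.19 to 0.22) at E15, Ccnd1 (-0.037 to 0.065), Cdkn1a (-0.065 to 0.25) and Cdkn2d (-0.10 to 0.032) at P5, and Ccnd3 (-0.64 to 0.30) and Cdkn1b (-0.10 to 0.053) at 12 weeks; between VPA running and VPA, Ccnd3 (-0.51 to 0.43), Cdkn1a (-1.0003 to 0.17) and Cdkn1c (-1.11 to 1.15); between VPA running and control, Ccnd1 (-0.27 to 0.11), Cdkn1c (-1.77 to 0.49), Cdkn2c (-0.098 to 0.51) and Cdkn2d (-0.30 to 0.065); and between control groups, Cdkn1a at P5 against E15 (-0.12 to 0.20) and Ccnd2 at 12 weeks against P5 (-0.13 to 0.041). In the interaction tests the sign changed over left-out libraries for Ccnd3 and Cdkn2c in all 3. It also changed for Cdkn2d at P5 minus E15, Ccnd2 at 12 weeks minus P5 and Cdkn1b at 12 weeks minus E15, none of them called. With quantile normalization Cdkn1b had 0.047 between VPA and control at 12 weeks and Cdkn1c 0.34 between VPA running and VPA, both against negative values. The cause was not tested.

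For Cdkn1c at P5 against E15 the adjusted p was 0.130 with a pseudocount of 0.1, and for Ccnd3 it was 0.136 with quantile normalization and 0.0552 with no filter. For Cdkn2c at 12 weeks against P5 it was 0.0555 with a pseudocount of 0.1, 0.0562 with no filter, 0.0544 without a trend and 0.0584 with the replicate block. Calls of Ccnd1 at both steps, Cdkn2c at P5 and Cdkn1a at 12 weeks held under all alternatives run. The replicate block changed no other call of the 8 genes. For same-numbered VPA and control libraries the correlations at P5 were lower than at E15 (0.0943, 0.0441 and 0.0132). Whether numbers pair samples at P5 is uncertain.

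Counts over all genes moved by over 1.5 times at P5 between VPA and control (298, against 36 with no filter, 70 with the replicate block and 15 in a fit of all libraries), at E15 (5, against 3 with no filter or in a fit of all libraries), and for the change in VPA effect between 12 weeks and P5 (57, against 9 with the replicate block and 211 without running replicate 3), between 12 weeks and E15 (12, against 0 with the block, 7 with a filter of 5 FPKM, 22 without a trend and 48 without running replicate 3) and between P5 and E15 (14, against 30 with no filter and 9 with the block). Between VPA running and VPA it was 0, against 3 with a pseudocount of 0.1, 1 with no filter, 6 with a filter of 5 FPKM, 9 with quantile normalization and 2 in a fit of those groups alone. Between VPA and control at 12 weeks it was 0, against 1 in a fit of those groups alone or without running replicate 3. In the fit of the control groups P5 and E15 alone it was 8033, against 3038.
With 1 library left out the count was 2271 to 2552 for control P5 against E15 and 1139 to 2288 for control 12 weeks against P5. The count between VPA and control ranged over 0 to 11 for E15, over 18 to 543 for P5 and over 0 to 1 for 12 weeks, between VPA running and VPA over 0 to 37, and between VPA running and control over 0 to 12. For the changes in VPA effect it ranged over 8 to 22 for P5 minus E15, 10 to 224 for 12 weeks minus P5 and 1 to 64 for 12 weeks minus E15.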
